A study of Arabidopsis thaliana with 8 samples.

Results

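SAUR19, SAUR20, SAUR21, SAUR22, SAUR23 and SAUR24 are 6 neighbouring genes of Arabidopsis thaliana, taken here by their locus identifiers AT5G18010, AT5G18020, AT5G18030, AT5G18050, AT5G18060 and AT5G18080. They are 6 of 23935 genes with a value in the series, and all 6 were measured in each mutant. The RNA came from whole seedlings 10 days old, all of the Col-0 ecotype, kept on plates of MS medium under days of 16 h light (23 °C) and nights of 8 h (21 °C). The groups were arid5(-/-), chr11(-/-)chr17(-/-), called chr11/17, rlt1(-/-)rlt2(-/-), called rlt1/2, and wild type (WT), with 2 libraries each. Each mutant was set against the same 2 WT libraries, so the comparisons with WT are not independent of each other. The labels do not say which alleles were used, how many plants were pooled, or whether the 2 libraries of a group came from separate plants, so the p-values measure only the spread between libraries, which may be technical.

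SAUR stands for small auxin up RNA. The proteins of the SAUR19 to SAUR24 group bind and inhibit PP2C.D phosphatases at the plasma membrane, which keeps the plasma membrane proton pumps of the AHA family phosphorylated and active. The pumps acidify the cell wall, and the wall loosens so that cells of the hypocotyl and leaf can expand. SAUR transcripts and proteins are short-lived, and auxin, brassinosteroids and factors of the PIF family raise their level. ARID5, CHR11, CHR17, RLT1 and RLT2 are subunits of ISWI chromatin remodelling complexes. CHR11 and CHR17 are the ATPases that move nucleosomes, and the others are accessory subunits. The series is titled as a study of ARID5 and flowering time.

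In the RefSeq annotation of the TAIR10.1 assembly, matched to the deposited rows by locus identifier, the 6 genes lie within 21.5 kb of chromosome 5. SAUR19 is at chr5:5962773-5963405 on the minus strand, and the SAUR20 transcript is at chr5:5966183-5966677 on the minus strand. SAUR21 is at chr5:5968352-5969190 on the plus strand, and SAUR22 is at chr5:5974341-5975087 on the minus strand. SAUR23 is at chr5:5975780-5976589 and SAUR24 at chr5:5983683-5984308, both on the plus strand. Each has 1 exon and a coding sequence of 267 to 276 bases. In 1 alignment of all 6, pairs of coding sequences were identical at between 88.3% (SAUR20 with SAUR22) and 95.9% (SAUR19 with SAUR21) of positions. Positions where a gene of the pair had a gap were left out. All 6 carried the same base at 223 of the 267 positions with a base in all 6, 83.5%. A stretch of 90 coding bases, chosen for having the most positions the same in all 6 (77), is printed below. It shows the genes where they are most alike. Capitals mark a base that differs from the commonest one at that position or, where bases are equally common, from the one that comes first in the order of the genes.
SAUR19: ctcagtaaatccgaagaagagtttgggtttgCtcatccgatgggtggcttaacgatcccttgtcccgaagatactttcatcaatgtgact
SAUR20: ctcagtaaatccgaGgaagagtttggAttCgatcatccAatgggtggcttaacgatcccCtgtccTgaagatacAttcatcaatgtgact
SAUR21: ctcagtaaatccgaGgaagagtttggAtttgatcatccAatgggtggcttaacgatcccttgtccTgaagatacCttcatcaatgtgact
SAUR22: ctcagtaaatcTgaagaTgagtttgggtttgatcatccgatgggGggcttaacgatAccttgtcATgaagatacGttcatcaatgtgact
SAUR23: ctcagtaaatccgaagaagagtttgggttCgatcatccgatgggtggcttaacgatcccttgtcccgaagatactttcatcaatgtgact
SAUR24: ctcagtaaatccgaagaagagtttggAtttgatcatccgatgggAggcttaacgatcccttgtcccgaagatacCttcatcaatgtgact

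How far reads can tell the genes apart depends on read length, which is not given in the sources used here. Of all stretches of 50 bases in the annotated transcript, the share found nowhere else in the genome was 81.5% for SAUR19, 92.9% for SAUR24, 94.2% for SAUR20, 94.8% for SAUR21, 97.4% for SAUR23 and 99.4% for SAUR22. The stretches that were not unique occurred in another of the 6 genes, and none had a copy outside them. At 100 bases every stretch was unique. The value of a single member, SAUR19 above all, is therefore less certain than the sum of the 6, and the sum is given beside the members throughout.

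The 250 bases before each annotated transcript start were searched on both strands for 7 motifs. CATGTG, a sequence bound by PIF factors, occurred before SAUR19, SAUR21 and SAUR22, and in 11.1% of 27443 windows of that length before protein-coding genes. TGTCTC, the classical auxin response element, occurred before SAUR20 and SAUR22, and in 11.0% of those windows. No member held TGTCGG (4.2% of windows), the G-box CACGTG (6.5%), the brassinosteroid response elements CGTGTG (5.4%) and CGTGCG (1.6%), or TATAAA (47.4%). Only these exact letters were searched. SAUR19 and SAUR22, printed below, hold the related stretch tatatata near the start, so a TATA-type sequence is not shown to be absent. The annotated gene SAUR20 extends 108 bases beyond its transcript, so its start is uncertain, and the annotated starts of the others were not checked. In the sequences below, cccacgcttcaagacca lies next to the start of SAUR21 but further upstream of SAUR19 and SAUR22. The windows thus do not cover the same part of the shared sequence, and whether a motif falls inside one depends on the annotated start. A match says only that the letters are present. The last 150 bases before the transcript are printed for the 3 genes with CATGTG, as examples of the shared upstream sequence, 5′ to 3′ on the gene's strand, from chr5:5963406-5963555 for SAUR19, chr5:5968202-5968351 for SAUR21 and chr5:5975088-5975237 for SAUR22. Capitals mark CATGTG and, in SAUR22, also TGTCTC on the opposite strand, which reads GAGACA.
SAUR19: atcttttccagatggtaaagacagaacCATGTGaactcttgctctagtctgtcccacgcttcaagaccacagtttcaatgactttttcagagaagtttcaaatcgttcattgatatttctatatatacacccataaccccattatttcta
SAUR21: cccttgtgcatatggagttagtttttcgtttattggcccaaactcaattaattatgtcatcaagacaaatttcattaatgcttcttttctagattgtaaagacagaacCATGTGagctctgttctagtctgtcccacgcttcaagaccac
SAUR22: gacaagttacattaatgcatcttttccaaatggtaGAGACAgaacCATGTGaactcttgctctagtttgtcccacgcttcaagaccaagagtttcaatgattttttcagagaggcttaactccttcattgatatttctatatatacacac

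The deposited values are normalised counts, in a separate table for each mutant with its WT, and whole reads were recovered from them. The 8 libraries held between 23135817 and 29965298 reads over the genes shared by the tables. Of the mutated genes, ARID5 was at 213 and 206 normalised counts in arid5, against 831 and 845 in WT. CHR17 was lower (log2 fold change -0.75) and CHR11 higher (1.28) in the libraries labelled chr11/17. RLT2 was lower by 4.75 on the log2 scale, and RLT1 was not called (0.10), in the libraries labelled rlt1/2. RLT1 was called higher there with equal library totals (0.37, adjusted p = 0.00186) and without rlt1/2 replicate 2 (0.24, adjusted p = 0.0179). The transcript levels thus check the labels of these 2 mutants only in part, and directions given for them rest on the labels. The names chr11/17 and rlt1/2 stand for the libraries so labelled. A gene was called where limma's adjusted p was under 0.05, and 5062 genes were called lower and 4784 higher in arid5, 7507 and 7485 in the libraries labelled chr11/17, and 4982 and 4944 in those labelled rlt1/2. With libraries scaled to equal totals, the median change of all genes moved to 0.252 in arid5, 0.144 in chr11/17 and 0.268 in rlt1/2, and the calls to 2680 lower and 9746 higher, 6288 lower and 8828 higher, and 2699 lower and 9660 higher. Changes below are relative to the median gene of each table.

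The summed transcripts of the 6 growth genes fell in all 3 mutants, to 35.0% of WT in arid5, 28.8% in the libraries labelled rlt1/2 and 1.57% in those labelled chr11/17. The sum was 421 and 518 normalised counts in arid5, against 1374 and 1310 in WT, means of 470 ± 68.9 and 1342 ± 45.2 (SD, n = 2). The log2 fold change was -1.50 ± 0.09 (SE, limma on log2 of the value plus 10, adjusted p = 3.53e-07). In the libraries labelled rlt1/2 the sum was 414 and 442, against 1520 and 1447 in WT, with a log2 fold change of -1.77 ± 0.08 (limma adjusted p = 3.32e-08). Neither mutant overlapped with WT, and the gap was many times the difference between the libraries of a group.

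In the libraries labelled chr11/17 the sum was 6.49 and 35.6 normalised counts, against 1372 and 1308 in WT. These values stood for 7 and 37 reads, against 1304 and 1257 reads in WT. The ratio of the means was 63.7-fold lower, with an interval of 47.3 to 87.9 that covers counting error only, and the log2 fold change was -5.62 ± 0.42 (limma adjusted p = 2.63e-05). Both libraries were far below WT, yet they differed from each other several-fold, so the size of the fall is known less well than its direction. Without chr11/17 replicate 1 the log2 fold change was -4.89, and without chr11/17 replicate 2 it was -6.35. Ranked by log2 fold change among 20873 genes or sums, the sum of the 6 was the 4th lowest there. The sum ranked 168th lowest of 20545 in arid5 and 104th lowest of 20736 in the libraries labelled rlt1/2. Ranked singly, the members lay between 24th (SAUR21) and 212th lowest (SAUR19) of 20878 in chr11/17. In arid5 they lay between 93rd (SAUR23) and 404th (SAUR24) of 20550, and in rlt1/2 between 106th (SAUR20) and 221st (SAUR22) of 20741. This log2 scale understates the fall of weakly expressed genes, and the sum has more reads than any member. The rank of the sum is thus not that of a single gene.

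**Figure D1:**
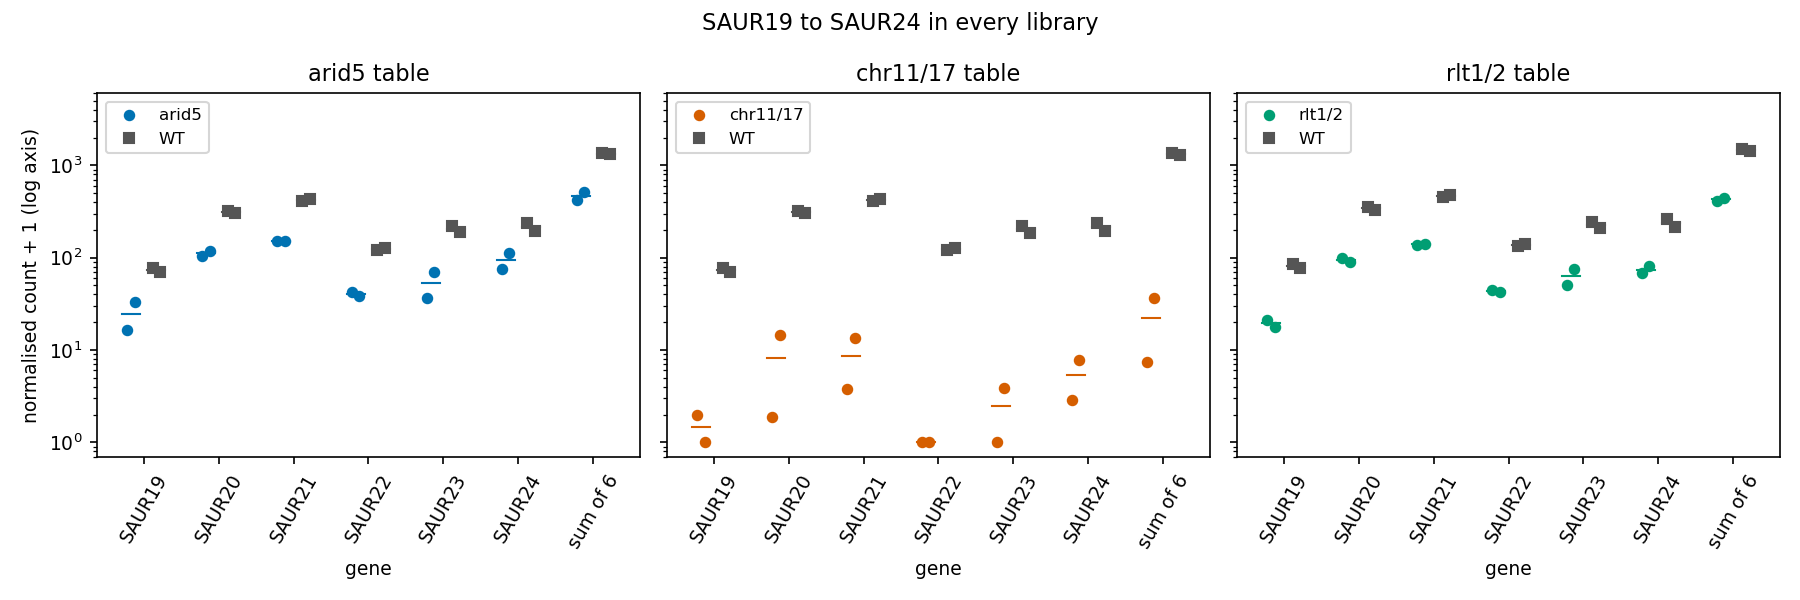
Normalised counts plus 1, on a log axis, of SAUR19 to SAUR24 and of their sum, in 1 panel for each deposited table. Circles are the 2 mutant libraries, squares the 2 WT libraries and short lines their means. All circles lie below the squares of the same gene, and in the chr11/17 table SAUR22 lies at 0 reads in both mutant libraries.

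All 6 members were called lower in arid5, where 24.6% of all 20550 genes tested were called lower, 23.3% higher and 47.9% either way. Their median log2 fold change was -1.41, against 0.003 over all genes. SAUR21, the member with the most reads, had 150 and 152 normalised counts in arid5, against 407 and 433 in WT, a log2 fold change of -1.41 ± 0.11 (limma adjusted p = 1.7e-06). SAUR20 had 104 and 116 in arid5, against 317 and 300 in WT (-1.41 ± 0.13). In both genes the arid5 libraries lay close together and well under WT. SAUR23 fell most, with 35.6 and 69.1 in arid5, against 218 and 187 in WT (-1.82 ± 0.23, limma adjusted p = 6.3e-05). SAUR24 fell least, with 74.4 and 111 in arid5, against 237 and 194 in WT (-1.15 ± 0.19, limma adjusted p = 0.000393). For these 2 genes the arid5 libraries differed from each other, replicate 1 being the lower, but neither reached the WT range. SAUR22 had 41.7 and 37.5 in arid5, against 119 and 126 in WT (-1.42 ± 0.18). SAUR19, the least abundant, had 15.4 and 32.2 in arid5, against 75.8 and 69.8 in WT (-1.34 ± 0.25, limma adjusted p = 0.00112). No member's arid5 values overlapped with its WT values.

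The 6 were also all called lower in the libraries labelled chr11/17, where 36% of 20878 genes were called lower, 35.9% higher and 71.8% either way. SAUR21 had 3 and 13 reads there, against 386 and 416 reads in WT, a ratio 54.9-fold lower (33.6 to 96.5, counting error only). SAUR20 had 1 and 14 reads, against 301 and 288 in WT, 43.0-fold lower (25.9 to 77.3). For SAUR24 the counts were 2 and 7 reads, against 225 and 186 in WT, 50-fold lower (26.1 to 110). Most of the reads left in these libraries belonged to those 3 genes, and replicate 2 held nearly all of them. SAUR23 had 0 and 3 reads, against 207 and 179 in WT, a WT to mutant ratio of 141 (47.8 to 686). SAUR19 had 1 and 0 reads, against 72 and 67 in WT, a ratio of 152 (26.9 to 6050). SAUR22 had 0 reads in both, against 113 and 121 in WT, so it was at least 42.7-fold lower, taking 3 reads per library as the most that a count of 0 allows. At so few reads the 6 genes cannot be ordered by how far they fell. On the log2 scale with 10 added, which understates the fall of weakly expressed genes, the changes ran from -4.66 ± 0.27 for SAUR21 to -2.98 ± 0.20 for SAUR19, with a median of -4.11, against -0.007 over all genes (limma adjusted p at most 3.73e-05 for each).

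In the libraries labelled rlt1/2 the members fell by similar amounts. All 6 were called lower, where 24% of 20741 genes were called lower, 23.8% higher and 47.9% either way. SAUR20 had 98.6 and 88.8 normalised counts in rlt1/2, against 351 and 331 in WT, a log2 fold change of -1.76 ± 0.14 (limma adjusted p = 1.54e-06). SAUR21 had 136 and 140 in rlt1/2, against 451 and 478 in WT (-1.68 ± 0.12). SAUR19 had 20.3 and 16.8 in rlt1/2, against 83.8 and 77.2 in WT (-1.67 ± 0.22). In these 3 genes the mutant libraries differed little from each other and lay far under WT. SAUR23 had 49.3 and 74.6 in rlt1/2, against 241 and 206 in WT (-1.72 ± 0.20). SAUR24 had 67.0 and 79.8, against 262 and 215 in WT (-1.57 ± 0.17). SAUR22 had the smallest change on this scale, with 43.3 and 41.2 in rlt1/2, against 132 and 139 in WT (-1.48 ± 0.18, limma adjusted p = 3.51e-05). The 6 changes lay between -1.76 and -1.48, with a median of -1.67 against 0.009 over all genes, and none of the groups overlapped.

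**Figure D2:**
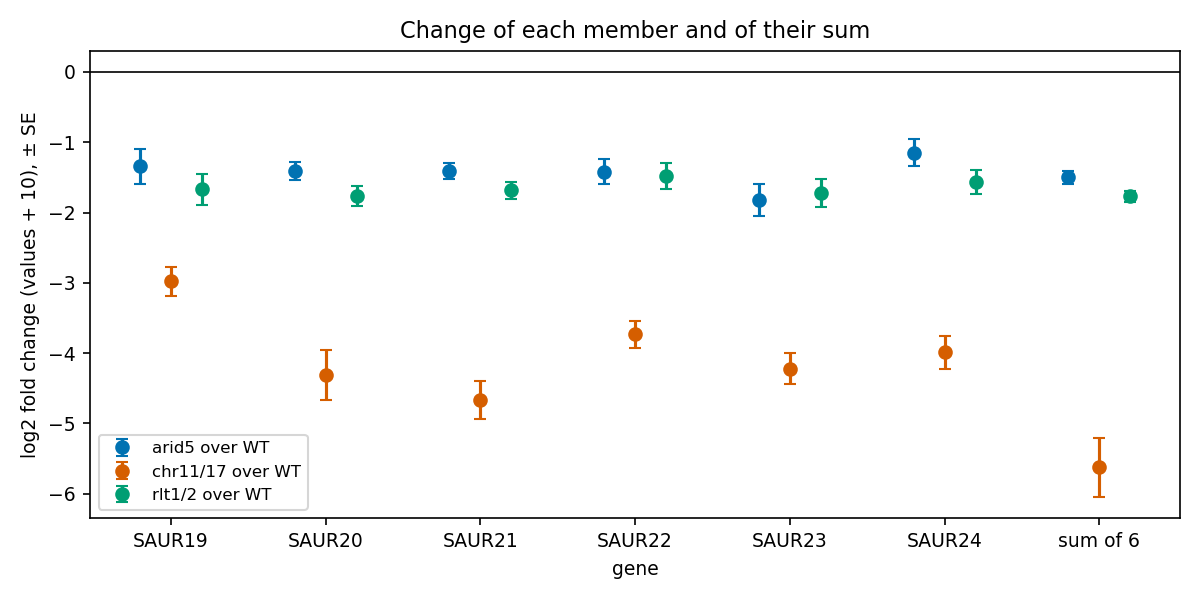
Log2 fold change over WT of each member and of the sum of the 6 (points) with its standard error (bars), from limma on log2 of the value plus 10, in arid5, chr11/17 and rlt1/2. The sum lies at -1.50 in arid5, -5.62 in chr11/17 and -1.77 in rlt1/2.

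Per kilobase of transcript the members differed in level, and their order in WT was clear. In RPKM, library-scaled reads per kilobase of transcript, SAUR20 was at 26.7 and 25.1 in WT, SAUR21 at 20.2 and 21.4, and SAUR24 at 15.8 and 12.8. Below them came SAUR23 at 11.2 and 9.53, SAUR22 at 6.63 and 6.99, and SAUR19 at 4.99 and 4.57. No 2 neighbours in this order overlapped between the WT libraries, but with the whole annotated gene of SAUR20, 603 bases in place of the 495 of its transcript, SAUR20 was at 21.9 and 20.6 and overlapped with SAUR21. In arid5 the upper part of the order was the same, with SAUR20 at 8.70 and 9.69, SAUR21 at 7.44 and 7.53 and SAUR24 at 4.95 and 7.35. SAUR23 (1.84 and 3.51), SAUR22 (2.32 and 2.09) and SAUR19 (1.02 and 2.09) could not be ordered in arid5 beyond their spread. In the libraries labelled rlt1/2 SAUR20 (7.44 and 6.75), SAUR21 (6.07 and 6.26) and SAUR24 (4.01 and 4.75) came in the same order, followed by SAUR23 (2.29 and 3.41), SAUR22 (2.16 and 2.07) and SAUR19 (1.2 and 1.01). With the whole annotated gene SAUR20 overlapped with SAUR21 in arid5 (7.14 and 7.95) and in rlt1/2 (6.11 and 5.54) too, so the order of these 2 genes depends on the length taken.

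Most members made up a similar share of the summed reads in mutants and WT. SAUR21 made up 35.6% and 29.5% of the reads of the 6 genes in arid5, 32.8% and 31.8% in the libraries labelled rlt1/2, and 29.6% and 33.1% in WT. SAUR20 made up 24.6% and 22.4% in arid5, 23.7% and 20.2% in rlt1/2, and 23.1% and 22.9% in WT. For both genes the mutant shares lay around the WT ones. SAUR23 had a lower share in arid5, at 8.51% (exact 95% interval 6.06 to 11.5) and 13.3% (10.5 to 16.4), against 15.9% (13.9 to 18.0) and 14.2% (12.4 to 16.3) in WT. The interval of the lower arid5 library lay below both WT intervals, and that of the other overlapped with both. SAUR24 had a higher share in arid5, at 17.7% (14.2 to 21.6) and 21.5% (18.1 to 25.1), against 17.3% (15.2 to 19.4) and 14.8% (12.9 to 16.9) in WT. Here the interval of arid5 replicate 2 lay above that of WT replicate 2 and overlapped with that of WT replicate 1. In the libraries labelled chr11/17 the 7 and 37 reads are too few to give shares of use.

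**Figure D3:**
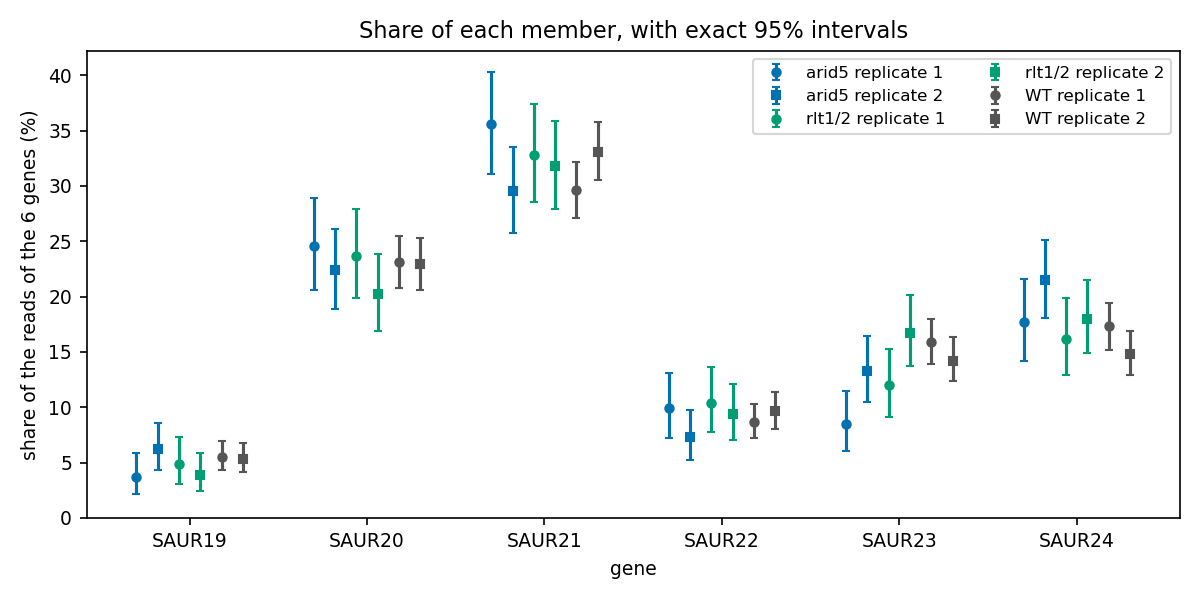
Share of each member in the reads of the 6 genes (percent, points) with exact 95% binomial intervals (bars, counting error only), in the arid5, rlt1/2 and WT libraries. SAUR21 lies between 29.5% and 35.6% in all 6 libraries and SAUR19 between 3.68% and 6.18%.

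The mutants were then compared with each other on the recovered reads, over the 8 libraries in 1 edgeR fit of 21371 genes. The sum of the 6 was 0.284 and 1.49 CPM (reads scaled to library size, with TMM) in the libraries labelled chr11/17, against 17.5 and 21.4 in arid5, a log2 fold change of -4.45 (edgeR adjusted p = 6e-07). Against 15.5 and 16.5 CPM in those labelled rlt1/2, the log2 fold change of chr11/17 was -4.17 (edgeR adjusted p = 1.2e-06). Leaving out 1 chr11/17 library moved these values over 1.5-fold. They were -3.71 over arid5 and -3.43 over rlt1/2 without chr11/17 replicate 1, and -6.08 and -5.79 without chr11/17 replicate 2. All 6 members were called lower in chr11/17 than in arid5, where 33.1% of genes were called lower and 32% higher, and than in rlt1/2, where 32.8% were called lower and 31.9% higher. Between arid5 and rlt1/2 the sum differed by 0.28 on the log2 scale, which was not called (edgeR adjusted p = 0.814, DESeq2 adjusted p = 1.0). By edgeR 0 of the 6 members were called either way, and 0 had an unadjusted p under 0.05. In that pair 0.323% of all genes were called lower and 0.0421% higher in arid5. The arid5 values of 17.5 and 21.4 lay above the rlt1/2 values of 15.5 and 16.5 without overlap, and the test does not show that the mutants are alike.

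The genes between the members were not called lower. AT5G18040 lies between SAUR21 and SAUR22 and is annotated as HEAT-INDUCED TAS1 TARGET 2. It had 269 and 320 normalised counts in arid5, against 265 and 283 in WT, and 260 and 281 in the libraries labelled chr11/17, against 264 and 283 in WT. In those labelled rlt1/2 it had 282 and 270, against 293 and 313 in WT, and it was called in none of the 3. DRT101, named for DNA damage repair and toleration, lies just before SAUR24. Its log2 fold change was 0.01 in arid5, -0.08 in chr11/17 and 0.16 in rlt1/2, and none was called. AT5G18065, annotated as HEAT-INDUCED TAS1 TARGET 3, had 168 and 188 in the libraries labelled chr11/17, against 125 and 95.9 in WT, and was called higher there (0.65 ± 0.17, limma adjusted p = 0.0117). That call was lost without WT replicate 2 (adjusted p = 0.0854) or without chr11/17 replicate 2 (adjusted p = 0.0831). AT5G18037 also lies among the 6 but had no value for any of the 3 mutants, so it could not be tested.

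Outside the group, VDD precedes SAUR19 and AT5G18090 follows SAUR24. VDD encodes VERDANDI, a factor of the ovule, and was near 0 in WT. It was called higher in arid5 (27.2 and 13.0, against 0.0135 and 2.07 in WT), in chr11/17 (19.2 and 13.3, against 0.0131 and 2.06) and in rlt1/2 (24.7 and 34.4, against 0.0428 and 2.23), and it passed the filter on low values through the mutants. AT5G18090 was called in none. With equal library totals some of these genes were called higher, and none of them was called lower under any alternative tried. CHR17 itself is on the same chromosome, 211 kb and 57 protein-coding genes from SAUR24.

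**Figure D4:**
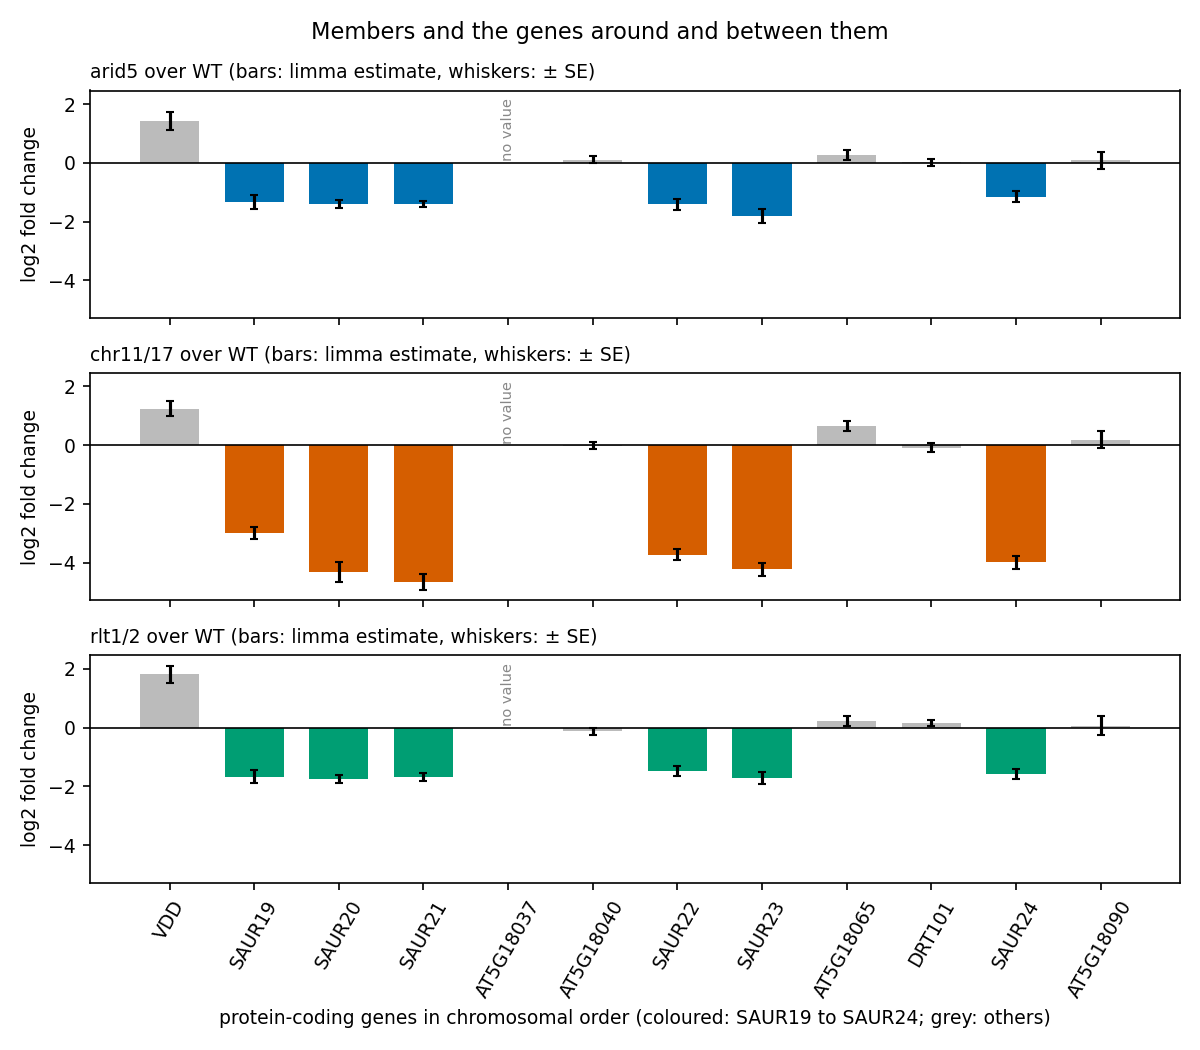
Log2 fold change over WT (bars) with standard error (whiskers) of the 12 protein-coding genes from VDD to AT5G18090 in chromosomal order, for arid5, chr11/17 and rlt1/2. The coloured bars of SAUR19 to SAUR24 point down in all 3 panels, and the grey bars between them lie between -0.13 and 0.65. AT5G18037 had no value and has no bar.

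Other SAUR genes were examined to place the 6 within their family. Of 73 other genes with a SAUR name in the RefSeq table, 54 were tested in arid5, where 20 were called lower and 8 higher (all genes 24.6% and 23.3%), with a median log2 fold change of -0.32. In the libraries labelled chr11/17, 56 were tested, 30 lower and 12 higher (all genes 36% and 35.9%), with a median of -0.65. For those labelled rlt1/2 the counts were 53 tested, 22 lower and 7 higher (all genes 24% and 23.8%), with a median of -0.26. The medians over all genes were 0.003, -0.007 and 0.009. The higher counts were the less stable ones. In arid5 the 8 became 3 with DESeq2 and 4 without WT replicate 1, and in rlt1/2 the 7 became 4 with DESeq2 and 12 with equal library totals. In chr11/17 the 30 lower became 19 with a filter at 50.

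Several SAUR genes elsewhere in the genome also fell. SAUR16 had 574 and 693 normalised counts in arid5, against 1706 and 1509 in WT (-1.33 ± 0.09), and in rlt1/2 it had 740 and 686, against 1889 and 1666 in WT (-1.30 ± 0.09). In chr11/17 it had 44.7 and 91.9, against 1704 and 1506 in WT (-4.43 ± 0.27). SAUR64 had 0.93 and 3.85 in the libraries labelled chr11/17, against 275 and 263 in WT (-4.50 ± 0.20). SAUR68 (AT1G29510) had 48.3 and 74.6 in arid5, against 229 and 248 in WT (-1.82 ± 0.19). SAUR62 to SAUR66 and SAUR68 belong to a second tight SAUR cluster, on chromosome 1. SAUR66 had 66.9 and 82.3 in rlt1/2, against 268 and 285 in WT (-1.76 ± 0.16).

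A smaller number of SAUR genes rose. SAUR25 had 214 and 175 normalised counts in the libraries labelled chr11/17, against 1.04 and 0.00509 in WT, and passed the filter through the mutant. SAUR30 had 849 and 944 there, against 220 and 188 in WT (2.08 ± 0.11). SAUR41 had 117 and 157 in arid5, against 75.6 and 50.2 in WT (1.02 ± 0.21), and SAUR59 had 440 and 457 in arid5, against 300 and 254 in WT (0.68 ± 0.11). SAUR59 also rose in rlt1/2, with 467 and 476, against 332 and 281 in WT (0.61 ± 0.11), and in chr11/17 (1.56 ± 0.11). SAUR41 rose in chr11/17 (1.58 ± 0.20) and in rlt1/2 (0.99 ± 0.20) too. The fall of SAUR19 to SAUR24 was thus shared with part of the family and not with all of it.

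**Figure D5:**
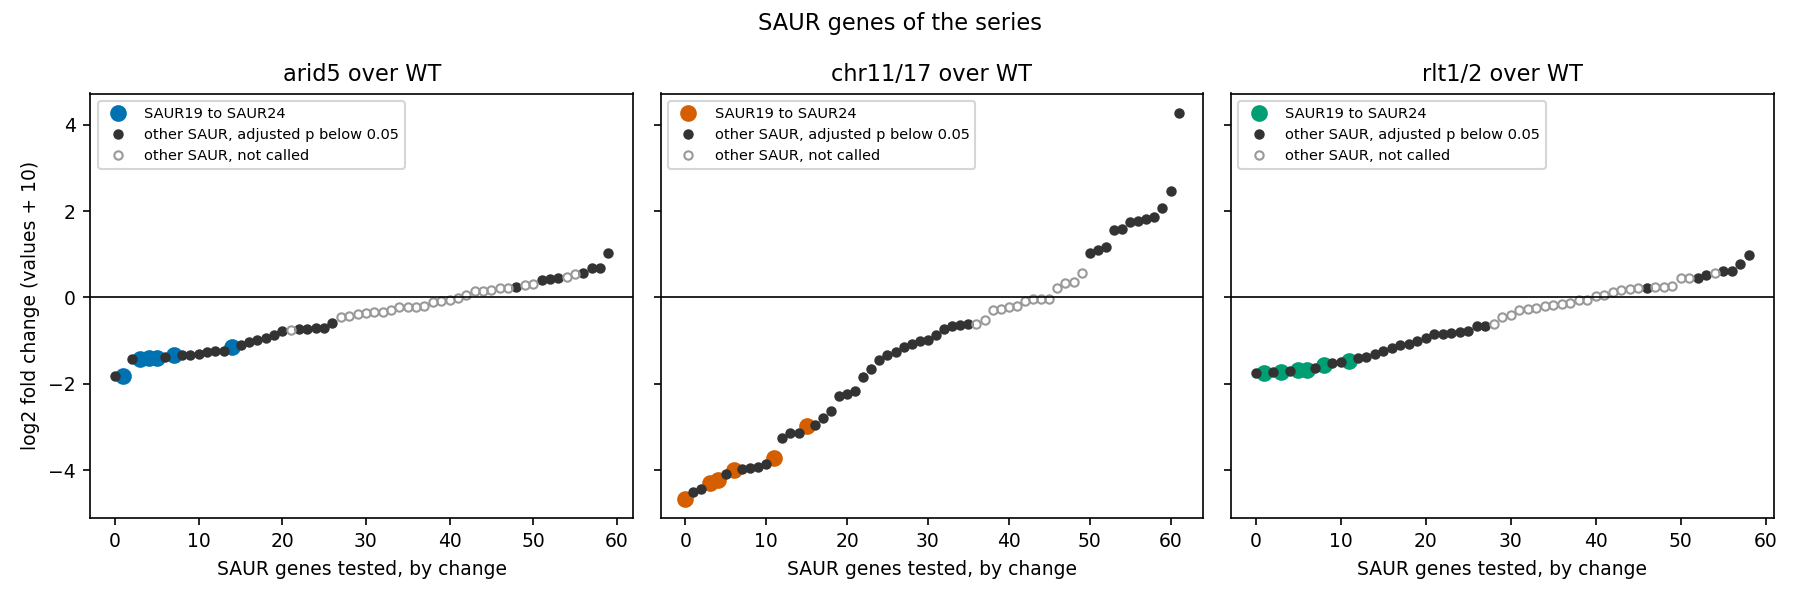
Log2 fold change over WT of every SAUR gene tested, sorted, in arid5, chr11/17 and rlt1/2. Large coloured points are SAUR19 to SAUR24, filled dark points other SAUR genes called at an adjusted p below 0.05, and open points those not called. The 6 members lie in the lower part of each panel, among other SAUR genes.

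The PP2C.D phosphatases, which the SAUR19 group inhibits, held called genes of both directions. Of 9 tested, 2 were called higher and 3 lower in arid5 (all genes 23.3% and 24.6%), 4 and 5 in the libraries labelled chr11/17 (all genes 35.9% and 36%), and 1 and 3 in those labelled rlt1/2 (all genes 23.8% and 24%). PP2C.D1 fell in each, with 785 and 1163 normalised counts in arid5, against 2127 and 1965 in WT (-1.09 ± 0.13). In chr11/17 it had 93.6 and 135, against 2124 and 1962 in WT (-4.07 ± 0.16), and in rlt1/2 1066 and 1107, against 2354 and 2169 in WT (-1.05 ± 0.07). PP2C.D8 was higher in the libraries labelled chr11/17, at 1378 and 1292, against 504 and 543 in WT (1.33 ± 0.08), and PP2C.D9 rose there too (1.31 ± 0.13). PP2C.D2 and PP2C.D6, among the lower ones in arid5, were no longer called with equal library totals.

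The plasma membrane proton pumps are the last step of the pathway. Of 10 tested, 6 were called higher and 2 lower in arid5 (all genes 23.3% and 24.6%), 5 and 3 in chr11/17 (all genes 35.9% and 36%), and 5 and 2 in rlt1/2 (all genes 23.8% and 24%). Their median log2 fold changes were 0.33, 0.41 and 0.23. AHA4 rose in each, with 245 and 239 normalised counts in arid5, against 109 and 115 in WT (1.05 ± 0.13), 695 and 512 in chr11/17, against 108 and 114 in WT (2.32 ± 0.16), and 273 and 289 in rlt1/2, against 120 and 126 in WT (1.12 ± 0.14). AHA2, the main pump of the root, had 23544 and 21195 in arid5, against 16925 and 16851 in WT (0.40 ± 0.07). AHA11 fell in the libraries labelled chr11/17, to 884 and 1062, against 3105 and 2770 in WT (-1.59 ± 0.10). AHA3, called lower in arid5 and rlt1/2, was not called with equal library totals.

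Regulators upstream of the SAUR genes fell in part with the 6. The list holds PIF, BZR1-type, ARF and bHLH factors, most of them activators of growth, with the repressors HFR1 and IBH1 among them. Of 16 tested, 11 were called lower and 0 higher in arid5 (median -0.33), 11 and 2 in chr11/17 (median -1.43), and 10 and 0 in rlt1/2 (median -0.40). Over all genes 24.6%, 36% and 24% were called lower in these mutants, and 23.3%, 35.9% and 23.8% higher. HFR1, IBH1 and the genes called higher are not among the examples printed. PIF4, a bHLH factor of growth in warmth, had 1359 and 1539 normalised counts in arid5, against 3931 and 3519 in WT (-1.36 ± 0.07). In chr11/17 it had 574 and 649, against 3926 and 3514 in WT (-2.59 ± 0.09), and in rlt1/2 1702 and 1225, against 4352 and 3885 in WT (-1.50 ± 0.12). HBI1, a bHLH factor of cell elongation, had 57.2 and 94.7 in chr11/17, against 2354 and 2347 in WT (-4.81 ± 0.19). In arid5 HBI1 changed by -0.74 ± 0.09 and in rlt1/2 by -0.90 ± 0.07.

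Among Aux/IAA genes, repressors of auxin response that auxin itself induces, 13 were tested. In arid5 7 were called lower and 1 higher (median -0.31), in chr11/17 10 and 0 (median -1.41), and in rlt1/2 10 and 1 (median -0.53). Over all genes the shares were the same 24.6%, 36% and 24% lower, and 23.3%, 35.9% and 23.8% higher. IAA29 had 36.7 and 55.7 normalised counts in arid5, against 209 and 174 in WT (-1.86 ± 0.20), 8.54 and 17.3 in chr11/17, against 209 and 174 in WT (-3.16 ± 0.24), and 34.7 and 50 in rlt1/2, against 231 and 193 in WT (-2.09 ± 0.20). IAA14 fell as well, with log2 fold changes of -1.28 in arid5, -3.15 in chr11/17 and -1.38 in rlt1/2.

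In these whole seedlings the shoot markers fell with the 6 genes, while most of the root markers called were higher. All 10 photosynthesis markers were called lower in each mutant, with medians of -0.98 in arid5, -2.52 in chr11/17 and -1.09 in rlt1/2, and none was at 0. Their summed level was 772959 and 856019 normalised counts in arid5, against 1615510 and 1571182 in WT. It was 211688 and 314724 in the libraries labelled chr11/17, against 1613263 and 1568926 in WT, and 940345 and 759569 in those labelled rlt1/2, against 1788830 and 1734406 in WT. Of 12 root markers 8 were higher and 2 lower in arid5, 6 and 3 in chr11/17, and 9 and 1 in rlt1/2, where 23.3%, 35.9% and 23.8% of all genes were called higher and 24.6%, 36% and 24% lower. The root markers summed to 66311 and 57146 in arid5, against 29623 and 31122 in WT, to 88096 and 81475 in chr11/17, against 29582 and 31078 in WT, and to 64123 and 81805 in rlt1/2, against 32801 and 34356 in WT, most of it from PYK10. Of 4 seed markers the 1 or 2 that could be tested were called higher, and they passed the filter through the mutants. They summed to 22 and 22 in arid5, against 8 and 2 in WT, to 379 and 158 in chr11/17, against 8 and 5 in WT, and to 31 and 38 in rlt1/2, against 9 and 5 in WT. The marker tested in arid5, CRA1, was not called there without WT replicate 2 (adjusted p = 0.0606). Fewer cells of a type and less RNA per cell cannot be told apart in such samples, and the part of tissue makeup in the fall of SAUR19 to SAUR24 was not tested.

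The genes whose level across the 8 libraries was most like the summed 6 were sought among 12926 genes with a mean of at least 10 CPM. The measure was Pearson's r of log2 of CPM plus 1. The added 1 shrinks the fall of the sum in chr11/17, at 0.284 and 1.49 CPM, and so bears on which genes rank first. As the libraries form groups that share a mutation, r serves as a description only. ARF6, an auxin response factor, led with r = 0.9993, at 48.4 and 49.3 CPM in arid5, 17.1 and 22.8 in chr11/17, 46.2 and 47.0 in rlt1/2, and 73.1 and 70.8 in WT. AT5G11880 and the auxin transporter ABCB19 followed at 0.9985, then GPAT8, an enzyme of cutin synthesis, at 0.9983, and the cellulose synthase CESA2 and the protein kinase CIPK20 at 0.9982. CIPK20, the last of the 6, was at 28.6 and 30.7 CPM in arid5, 1.75 and 3.74 in chr11/17, 25.2 and 21.6 in rlt1/2, and 66.0 and 67.0 in WT.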

How the data were processed

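Libraries for mRNA-seq were made from total RNA, per the labels' protocols. HISAT2, edgeR and the TAIR10 build are named in the submitters' processing notes. The deposited values, used as signal, are normalised counts that behave as edgeR pseudo-counts, made by the authors for each of 3 tables separately. The adjustment was inverted, and whole reads (within rounding) were recovered for 100% of values. The WT reads were the same in the 3 tables. Because the values are not counts, the main test was limma 3.58.1 with a trend on log2 of the value plus 10, for genes at 10 or more in at least 2 libraries, two-sided, with Benjamini-Hochberg adjustment over the table. For the sum, 1 row replaced the 6. Mutants were compared with edgeR 4.0.16 (quasi-likelihood, TMM) on the recovered reads. DESeq2 1.42.0, other scalings, filters and pseudocounts, a replicate block and leaving out each library were alternatives. R was 4.3.3. The scripts' tests were run on simulated data.

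The members and lists were chosen with earlier results of these data known. Named were the 6 genes, their chromosomal neighbours, the mutated genes, for every list and mutant the 4 called genes that ranked first by adjusted p, or fewer (other SAUR genes: 4 in each direction), and the 6 genes most like the sum by r. Examples printed are some of these. AT5G01830 bears the name SAUR21 in the RefSeq table but is not a SAUR protein, and was left out of the family. RefSeq sequences are of TAIR10.1, and the deposited tables hold no coordinates. Intervals and limits cover counting error only.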

Additional observations from a re-analysis of the deposited data

Results flagged for a closer look

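The change of the summed SAUR19 to SAUR24 reads differed between mutants by a direct test. In the edgeR fit of 8 libraries, the sum was lower in the libraries labelled chr11/17 than in arid5, with a log2 fold change of -4.45 (adjusted p = 6e-07) and both chr11/17 libraries below both arid5 libraries. It was also lower than in the libraries labelled rlt1/2, with a log2 fold change of -4.17 (adjusted p = 1.2e-06) and again no overlap. The 2 contrasts share the chr11/17 libraries. No group had enough libraries to look for one that stands apart.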

How the results depend on the processing

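All 6 members were called lower in each mutant under each of the 12 alternatives. The sum ranged from -1.65 to -1.24 in arid5, from -6.35 to -4.89 in the libraries labelled chr11/17, and from -1.81 to -1.50 in those labelled rlt1/2. Same-numbered libraries deviated together little (r of -0.00254, 0.0139 and 0.156), so the replicate numbers were not taken as pairs. With the replicate block the sum stayed at -1.50 (limma adjusted p = 1.12e-09), -5.62 (limma adjusted p = 2.19e-06) and -1.77 (limma adjusted p = 1.51e-96). The last p-value leans on a spread that limma took mostly from other genes. It should not be read as the certainty that 2 libraries per group can give. In rlt1/2 the block raised the genes called from 4982 lower and 4944 higher to 5684 and 5680. CHR11 was called higher there only with the block or some other alternatives (0.18 with the block, limma adjusted p = 0.02). Called genes in arid5 became 2680 lower and 9746 higher with equal library totals, and in rlt1/2 2699 and 9660, by the shift of all genes that this scaling makes. Other SAUR genes called higher in arid5 were 3 with DESeq2 and 4 to 7 with 1 library left out. In rlt1/2 they were 12 with equal library totals and 4 with DESeq2. In chr11/17 19 were called lower with the filter at 50, which tests fewer genes. The cause of the others was not tested.

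Some values not called in the main test changed sign. With equal library totals these were RLT2 (0.06), AT5G18040 (0.14) and DRT101 (0.08) in chr11/17 and AT5G18040 (0.14) in rlt1/2, and with DESeq2 AT5G18040 (0.00) in chr11/17. With 1 library left out, AT5G18040 lay between -0.02 and 0.22 in arid5 and between -0.07 and 0.04 in chr11/17. DRT101 lay between -0.05 and 0.07 in arid5 and between -0.24 and 0.08 in chr11/17. AT5G18090 lay between -0.25 and 0.41 in arid5, between -0.14 and 0.52 in chr11/17, and between -0.25 and 0.40 in rlt1/2. RLT1 lay between -0.04 and 0.24 in rlt1/2, and 0.24, without rlt1/2 replicate 2, was called (adjusted p = 0.0179), as was 0.37 with equal library totals (adjusted p = 0.00186). In the chr11/17 libraries the 7 and 37 reads of the 6 genes limit every fold change.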
